A study of Nematostella vectensis with 84 samples.

Results

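The comparison concerns which fine cell types carried the Elav>KikGR reporter and which carried the FoxL2>KikGR reporter in adults of the starlet sea anemone, Nematostella vectensis. The cells were those sorted from the gate that the deposited cell table names KikGR+, and they numbered 5676 of the 12352 cells of the series. Of these, 2764 came from the Elav line (19 libraries of 8 dissociations) and 2912 from the FoxL2 line (21 libraries of 8 dissociations). Each cell carries 1 of 45 fine cluster names, which the authors nested in 13 broad clusters, and the measurement is the share of a dissociation's cells that bore each name. FoxL2 cells from other gates, 3225 in number, were left out, and they included all the cells of 2 of the line's 10 dissociations.

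Animals of both lines were heterozygous for a stable transgene, were 6 to 8 weeks old, and had been photoconverted 2, 4 or 7 days before the body wall with mesenteries was dissociated. In the Elav line 4 dissociations (1523 cells) are labelled with 1% DMSO and 4 (1241 cells) have no treatment stated. In the FoxL2 line the numbers are 5 with DMSO (2278 cells) and 3 with no treatment stated (634 cells). Dissociations with no treatment stated are called untreated here. Days 2, 4 and 7 were held by 3, 2 and 3 Elav dissociations and by 2, 4 and 2 FoxL2 dissociations, so the lines were not balanced for day. The FoxL2 line had no untreated dissociation at day 7 and the Elav line none at day 4. All wells of untreated dissociations, and no well of a DMSO dissociation, were listed in a single demultiplexing pool, so medium and pool cannot be told apart. How many animals went into a dissociation is not given in the sources used here.

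Elav proteins bind RNA and are widely used as markers of neurons. FoxL2 is a transcription factor of the forkhead family. KikGR fluoresces green when first made and is switched to red by violet light, which cannot be undone, and a reporter of this kind marks the cells in which its driver is active and also cells that still hold protein made earlier. A sea anemone polyp is built of an outer epidermis and an inner gastrodermis, with a nerve net, gland cells, muscle and stinging cells set among them, and it has no brain. The files used here hold no expression values, so neither the cluster names nor the activity of either driver could be checked against marker genes. The names are the authors' and are kept as they wrote them.

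A dissociation held 287 to 569 cells in the Elav line and 157 to 577 in the FoxL2 line, with a median of 325 over all 16. At these numbers a count of 0 cells allows a share of up to 0.520% in the largest dissociation and up to 1.91% in the smallest, for counting error only. The smallest were FoxL2 dissociations 12 and 13, both untreated at day 4, with 157 and 162 cells from 1 library each. Of the 45 fine clusters, 22 had a cell in every dissociation and 11 had fewer than 50 cells in all. A cluster's share can be lower because its cells were fewer or because other cells in the gate were more, and shares alone do not tell these apart.

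The 3 fine clusters that passed the test over all cells were an epidermal one and a neural one that were higher in FoxL2, and a second neural one that was higher in Elav. These 3 of 45 clusters (6.67%) had an adjusted p under 0.05 in a two-sided exact permutation test of the Elav minus FoxL2 difference over the 8 against 8 dissociations, with Benjamini-Hochberg adjustment over all 45. At an unadjusted p under 0.05 there were 12 clusters, of which 5 were higher in Elav and 7 in FoxL2. Over all 45, 24 means were higher in Elav and 21 in FoxL2, with a median difference of 0.0424 percentage points. The 12870 arrangements of the samples allow no p below 0.0001554. Leaving out 1 dissociation at a time gave 2 to 6 calls (6 without Elav dissociation 27), and leaving out FoxL2 dissociations 12 and 13 together gave 8.

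Cluster 1 - Epidermis, the single fine cluster of the broad cluster Epidermis, held 53 Elav cells and 529 FoxL2 cells. With DMSO its share was 2.36% (dissociation 22), 0.678% (23), 2.46% (24) and 7.16% (27) in Elav, against 31.9% (11), 12.1% (14), 13.3% (15), 27.7% (16) and 25.4% (17) in FoxL2. Untreated, it was 0% (dissociation 20), 0.658% (21), 0.312% (25) and 0.304% (26) in Elav, against 6.67% (10), 8.28% (12) and 1.23% (13) in FoxL2. Every FoxL2 value was above every Elav value within each medium, while over both media FoxL2 dissociations 10 and 13 were below Elav dissociation 27, and 13 also below Elav dissociations 22 and 24. The lowest, median and highest Elav values were 0%, 0.668% and 7.16%, and those of FoxL2 were 1.23%, 12.7% and 31.9%. The mean was 1.74 ± 2.38% in Elav and 15.8 ± 11.1% in FoxL2 (SD, n = 8 each), a difference of -14.1 points (SE 4.02; adjusted p = 0.0210, exact permutation test) and 9.08-fold lower in Elav. Leaving out Elav dissociation 20, 21, 22, 23, 24 or 25 ended this call, with adjusted p between 0.0594 and 0.0816 by the exact permutation test, though the difference stayed between -16.2 and -11.8 points over all 16 such refits.

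Cluster 6 - Neural 4 - Anoctamin8, which alone makes up the broad cluster Neural 4, held 9 Elav cells and 81 FoxL2 cells. Its name refers to a gene of the anoctamin family of membrane proteins. With DMSO its share was 0.338% (dissociation 22), 0% (23), 0% (24) and 0.551% (27) in Elav, against 6.02% (11), 3.68% (14), 1.50% (15), 2.08% (16) and 1.88% (17) in FoxL2. Untreated, it was 0.697% (dissociation 20), 0.658% (21), 0% (25) and 0.608% (26) in Elav, against 0.952% (10), 3.18% (12) and 4.32% (13) in FoxL2. All 8 FoxL2 values lay above all 8 Elav values, in each medium and over both. The gap was narrow at its edge: FoxL2 dissociation 10 had 3 such cells of 315 and Elav dissociation 20 had 2 of 287. In the 3 Elav dissociations with no such cell, the count of 0 allows shares of up to 1.02%, 0.527% and 0.935%. The lowest, median and highest Elav values were 0%, 0.444% and 0.697%, and those of FoxL2 were 0.952%, 2.63% and 6.02%. On average the share was 0.356 ± 0.314% in Elav and 2.95 ± 1.69% in FoxL2 (SD, n = 8 each), a difference of -2.60 points (SE 0.606; adjusted p = 0.00699, exact permutation test) and 8.28-fold lower in Elav.

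Cluster 18 - Neural 1 is 1 of 13 fine clusters of the broad cluster Neural 1 and has no gene in its name. It held 103 Elav cells and 46 FoxL2 cells. With DMSO its share was 3.38% (dissociation 22), 1.69% (23), 4.75% (24) and 2.20% (27) in Elav, against 1.20% (11), 1.65% (14), 1.00% (15), 2.43% (16) and 1.17% (17) in FoxL2. Untreated, it was 3.48% (dissociation 20), 4.28% (21), 4.36% (25) and 4.86% (26) in Elav, against 1.90% (10), 0.637% (12) and 1.85% (13) in FoxL2. The lines were apart among untreated dissociations, whereas with DMSO FoxL2 dissociation 16 was above Elav dissociations 23 and 27. The lowest, median and highest Elav values were 1.69%, 3.88% and 4.86%, and those of FoxL2 were 0.637%, 1.43% and 2.43%. Its mean of 3.63 ± 1.17% in Elav and 1.48 ± 0.580% in FoxL2 (SD, n = 8 each) gave a difference of 2.14 points (SE 0.462; adjusted p = 0.0210, exact permutation test), 2.45-fold higher in Elav.

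**Figure D1:**
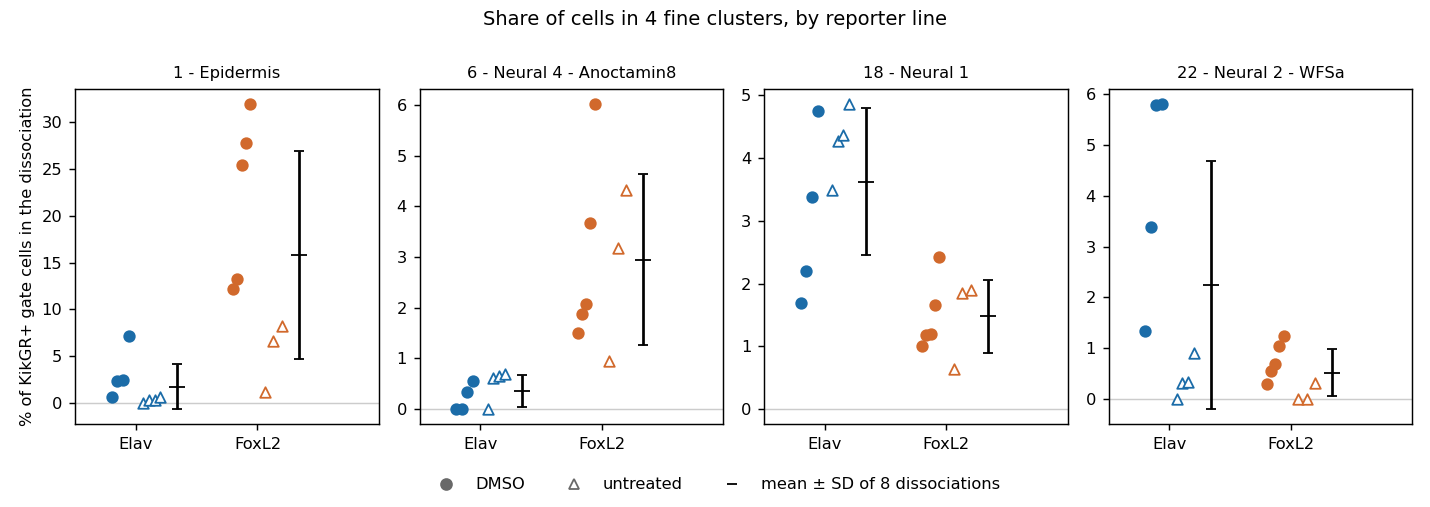
Percentage of each dissociation's KikGR+ gate cells in 4 fine clusters, for the Elav and FoxL2 lines; filled circles are DMSO dissociations, open triangles untreated ones, and bars the mean ± SD of 8. FoxL2 dissociations sit higher in 1 - Epidermis and 6 - Neural 4 - Anoctamin8, Elav ones in 18 - Neural 1, and in 22 - Neural 2 - WFSa the 4 Elav dissociations with DMSO stand above all others.

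Because day and medium were spread unevenly over the lines, the labels were also permuted within medium, which allows 4410 arrangements. The number passing was then 4 of 45 (8.89%), with 14 at an unadjusted p under 0.05. The 4 were the 3 clusters above and 22 - Neural 2 - WFSa. The adjusted p was 0.00510 for 1 - Epidermis and for 6 - Neural 4 - Anoctamin8, 0.0136 for 18 - Neural 1 and 0.0153 for 22 - Neural 2 - WFSa (exact permutation test within medium). Matching the samples on both medium and day left 6 dissociations a line and 108 arrangements, so the smallest p was 0.00926 and 9 clusters would have had to reach it for any to pass. None passed this exact permutation test and 8 had an unadjusted p under 0.05. The clusters that reached the smallest p (adjusted p = 0.0833) were 1 - Epidermis, 4 - Neural 1, 6 - Neural 4 - Anoctamin8, 9 - Secretory - mucous cell and 22 - Neural 2 - WFSa. For 1 - Epidermis and 6 - Neural 4 - Anoctamin8 the differences were -17.3 and -2.31 points. That p can be reached only when the lines do not overlap in any of the 4 combinations of medium and day that held both. The separation in these clusters therefore adds nothing to the p. For 22 - Neural 2 - WFSa, untreated at day 2, it rested on 1 cell of 287 (dissociation 20) and 1 of 304 (21) in Elav, against 1 of 315 (10) in FoxL2. FoxL2 was the higher line in clusters 1, 6 and 9, and Elav in clusters 4 and 22. The difference for 18 - Neural 1 was 1.74 points (permutation p = 0.0463, adjusted p = 0.250).

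Libraries of DMSO dissociations were spread over several demultiplexing pools, and 2 of them held enough of both lines to be read alone. In pool SB34 (3 Elav and 5 FoxL2 dissociations), 1 - Epidermis averaged 3.18% in Elav and 24.1% in FoxL2, a difference of -21.0 points (exact permutation p = 0.0179, the smallest its 56 arrangements allow). There 6 - Neural 4 - Anoctamin8 differed by -3.10 points (exact permutation p = 0.161) and 18 - Neural 1 by 2.11 points (exact permutation p = 0.0179). In pool SB40 (2 Elav and 4 FoxL2 dissociations, where no p can be below 0.0667) the differences were -14.7, -2.20 and 1.65 points, in the same order of clusters, with exact permutation p of 0.133, 0.133 and 0.267. The directions were those of all cells in both pools. The pools are not separate samples, since Elav dissociation 27 and FoxL2 dissociations 14, 15, 16 and 17 had cells in both, and all these cells were in the main test. In neither pool did a cluster pass after adjustment. None could in SB40, and in SB34 many clusters would have had to reach the smallest p for any to pass.

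Cluster 22 - Neural 2 - WFSa, of the broad cluster Neural 2, was the one added by keeping medium fixed. With DMSO its share was 1.35% (dissociation 22), 3.39% (23), 5.80% (24) and 5.79% (27) in Elav, against 0.301% (11), 0.551% (14), 1.25% (15), 1.04% (16) and 0.704% (17) in FoxL2. Untreated, it was 0.348% (dissociation 20), 0.329% (21), 0% (25) and 0.912% (26) in Elav, against 0.317% (10), 0% (12) and 0% (13) in FoxL2. All 4 Elav values lay above all 5 FoxL2 values with DMSO, and the lines overlapped without it. Over all dissociations the mean was 2.24 ± 2.43% in Elav and 0.521 ± 0.459% in FoxL2 (SD, n = 8 each), a difference of 1.72 points that did not pass when medium was set aside (adjusted p = 0.239, exact permutation test).

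The test of DMSO dissociations alone (4 Elav against 5 FoxL2) called 0 of 45 clusters (0%), with 9 at an unadjusted p under 0.05, of which 6 were higher in Elav and 3 in FoxL2. Its 126 arrangements give no exact permutation p below 0.00794, and 8 clusters at that value are needed for any to pass. The 3 clusters at that p (adjusted p = 0.119 by exact permutation) were 22 - Neural 2 - WFSa, 4 - Neural 1 and 27 - Neural 0 - Prdm14d. For 22 - Neural 2 - WFSa the DMSO means were 4.08 ± 2.14% in Elav (n = 4) and 0.770 ± 0.380% in FoxL2 (n = 5), a difference of 3.31 points. Cluster 4 - Neural 1 averaged 7.88 ± 3.60% in Elav and 3.38 ± 0.902% in FoxL2, a difference of 4.50 points. Cluster 27 - Neural 0 - Prdm14d, whose name refers to a gene of the PRDM family of transcriptional regulators, averaged 0.571 ± 0.437% in Elav and 1.57 ± 0.376% in FoxL2, a difference of -0.997 points. The DMSO difference was -18.9 points for 1 - Epidermis (3.17 ± 2.79% in Elav, 22.1 ± 8.89% in FoxL2; adjusted p = 0.153, exact permutation test). It was -2.81 points for 6 - Neural 4 - Anoctamin8 (0.222 ± 0.271% in Elav, 3.03 ± 1.87% in FoxL2; adjusted p = 0.119, exact permutation test).

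Among untreated dissociations (4 Elav against 3 FoxL2), 0 of the 43 clusters that had cells passed (0%) and 5 had an unadjusted p under 0.05. All 5 stood at 0.0286, the smallest exact permutation p that 35 arrangements allow, and 25 clusters would have had to reach it for any to pass. The lines cannot overlap at that p, so their separation in these 5 adds nothing to it. For 1 - Epidermis the means were 0.318 ± 0.269% in Elav and 5.39 ± 3.69% in FoxL2, a difference of -5.08 points. For 6 - Neural 4 - Anoctamin8 they were 0.491 ± 0.329% in Elav and 2.82 ± 1.71% in FoxL2, a difference of -2.33 points. The third was 17 - Neural 3 - Insm/FoxQ2d, with 0.163 ± 0.189% in Elav and 1.47 ± 0.376% in FoxL2, a difference of -1.31 points. Those higher in Elav were 18 - Neural 1 (4.25 ± 0.570% in Elav, 1.46 ± 0.717% in FoxL2, a difference of 2.78 points) and 20 - Neural 1 - RPa (3.87 ± 0.527% in Elav, 2.20 ± 0.280% in FoxL2, a difference of 1.67 points). Beyond these 5, the lines were also apart in 21 - Secretory - ilp2/3, with 0.872 ± 0.441% in Elav and 1.47 ± 0.335% in FoxL2 (exact permutation p = 0.143). There the highest Elav value was 1.25% and the lowest FoxL2 value 1.27%.

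Whether the difference between lines itself changed with medium was tested by permuting the medium labels within each line. It passed in 0 of 45 clusters (0%), with 2 at an unadjusted p under 0.05. The DMSO difference of 22 - Neural 2 - WFSa exceeded its untreated one by 3.02 points (adjusted p = 0.540, exact permutation test). The same quantity, the DMSO difference minus the untreated one, was -13.8 points for 1 - Epidermis (adjusted p = 0.551) and 1.60 points for 24 - Neural 1 (adjusted p = 0.781), both by the exact permutation test. The direction was the same in both media for 31 of the 43 clusters that had untreated cells. Cluster 4 - Neural 1 was among the others: untreated, it averaged 9.93 ± 4.37% in Elav and 11.4 ± 4.23% in FoxL2.

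**Figure D2:**
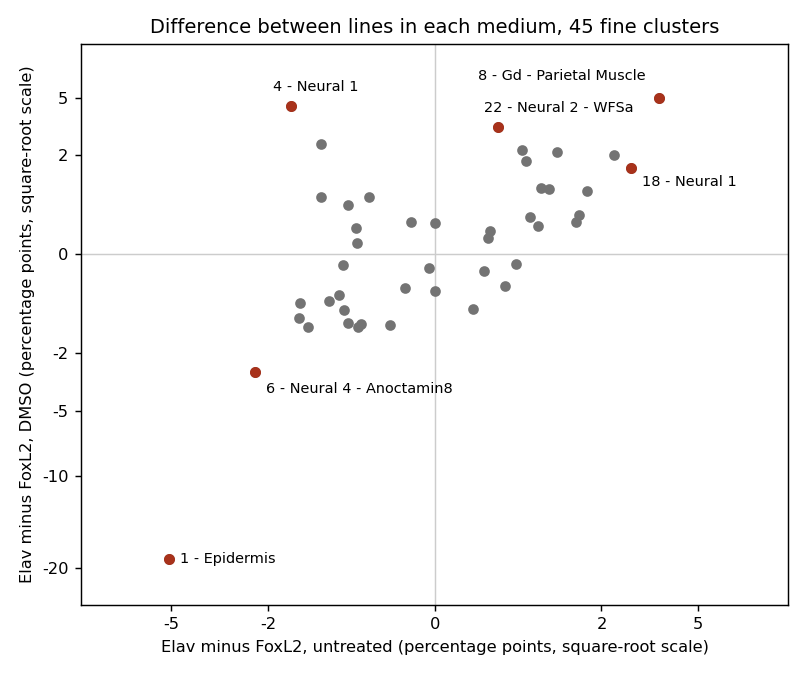
Elav minus FoxL2 difference in the share of each of the 45 fine clusters, in percentage points on square-root scales, among untreated dissociations (x axis) and DMSO dissociations (y axis); labelled red points are 6 of the clusters named in the text. Points at lower left were higher in FoxL2 in both media, among them 1 - Epidermis at -5.08 and -18.9 points, while 4 - Neural 1 lies at upper left, with -1.48 and 4.50 points.

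By broad cluster, the fine clusters of Neural 1 mostly pointed to Elav. Of its 13 fine clusters 12 had the higher mean in Elav, against 24 of all 45, and 1 passed the test. The median difference was 1.08 points, against 0.0424 over all 45 clusters. Neural 1 in all held 44.0 ± 12.2% of Elav cells and 29.5 ± 13.5% of FoxL2 cells (SD, n = 8 each). These counts over fine clusters are not independent, since shares sum to the whole and neighbours in the clustering can exchange cells.

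The Neural 1 clusters of at least 2% in either line that did not pass began with the large 4 - Neural 1, which averaged 8.91 ± 3.87% in Elav and 6.39 ± 4.78% in FoxL2 (exact permutation p = 0.266). The next, 5 - Neural 1, held 7.43 ± 6.36% of Elav cells and 5.55 ± 5.40% of FoxL2 cells (exact permutation p = 0.534). Cluster 10 - Neural 1 - RPa held 4.58 ± 1.47% in Elav and 3.51 ± 1.56% in FoxL2 (exact permutation p = 0.179). Cluster 11 - Neural 1 - Class8-like averaged 4.57 ± 2.52% in Elav and 2.48 ± 2.26% in FoxL2 (exact permutation p = 0.102). For clusters 4, 5, 10 and 11 both SDs were larger than the difference of the means. Cluster 13 - Neural 1 averaged 4.04 ± 0.822% in Elav and 2.79 ± 0.747% in FoxL2, a difference of 1.25 points (adjusted p = 0.0822, exact permutation test). Cluster 20 - Neural 1 - RPa averaged 2.96 ± 1.38% in Elav and 1.61 ± 0.784% in FoxL2, a difference of 1.35 points (adjusted p = 0.121, exact permutation test). The 1 Neural 1 cluster with the higher mean in FoxL2 was 24 - Neural 1, with 1.83 ± 1.01% in Elav and 1.88 ± 0.805% in FoxL2.

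The other neural clusters did not share one direction. Neural 2 in all held 8.07 ± 2.20% of Elav cells and 5.42 ± 2.91% of FoxL2 cells, and 3 of its 4 fine clusters had the higher mean in Elav, against 24 of all 45. Within it, 15 - Neural 2 - ilp7 held 2.61 ± 1.93% in Elav and 2.77 ± 2.48% in FoxL2 (exact permutation p = 0.896), and 29 - Neural 2 held 2.10 ± 1.26% in Elav and 1.11 ± 0.477% in FoxL2 (adjusted p = 0.114, exact permutation test). Both fine clusters of Neural 3 had the higher mean in FoxL2, though neither passed. They were 17 - Neural 3 - Insm/FoxQ2d, with 0.677 ± 0.753% in Elav and 1.60 ± 0.568% in FoxL2 (adjusted p = 0.0925, exact permutation test), and 39 - Neural 3 - PaxC, with 0.163 ± 0.176% in Elav and 1.03 ± 0.914% in FoxL2 (adjusted p = 0.0822, exact permutation test). Insm, FoxQ2d and PaxC are names of transcription factor genes. The other cluster named for PaxC, 35 - Neural 2 - PaxC, averaged 1.13 ± 0.691% in Elav and 1.03 ± 1.15% in FoxL2.

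Among the gland cells of the broad cluster Secretory, 9 of 11 fine clusters had the higher mean in FoxL2 and none passed over all cells. Secretory in all held 13.1 ± 3.82% of Elav cells and 16.6 ± 4.84% of FoxL2 cells. Trypsin is a digestive protease, and 7 - Secretory - trypsin averaged 2.53 ± 0.777% in Elav and 3.64 ± 0.724% in FoxL2, a difference of -1.11 points (adjusted p = 0.0822, exact permutation test). It passed when 1 - Epidermis cells were not counted in the total (-1.82 points, adjusted p = 0.0325) and without Elav dissociation 27 (-1.30 points, adjusted p = 0.0294), both by the exact permutation test. Cluster 16 - Secretory - trypsinA/B averaged 1.43 ± 1.01% in Elav and 2.17 ± 1.08% in FoxL2 (exact permutation p = 0.180). Cluster 19 - Secretory - pl1 was 1 of the 2 with the higher mean in Elav, at 2.18 ± 0.872% in Elav and 1.87 ± 0.953% in FoxL2 (exact permutation p = 0.504). Of those under 2%, 21 - Secretory - ilp2/3 averaged 1.1 ± 0.59% in Elav and 1.77 ± 0.569% in FoxL2 (adjusted p = 0.121, exact permutation test). The mucus-producing cells of 9 - Secretory - mucous cell, placed in a broad cluster of their own kind, averaged 0.807 ± 0.514% in Elav and 1.86 ± 0.818% in FoxL2 (adjusted p = 0.0822, exact permutation test). They passed without 1 - Epidermis (-1.35 points, adjusted p = 0.0325), with all sorting gates (-1.39 points, adjusted p = 0.0375), without FoxL2 dissociation 12 (-1.22 points, adjusted p = 0.0280) and without FoxL2 dissociations 12 and 13 (-1.05 points, adjusted p = 0.0343), all by permutation tests. Taking all sorting gates added FoxL2 cells, and no Elav cells, that had been sorted from gates other than KikGR+. Those gates can change the make-up of the FoxL2 cells by themselves, so the shares with all gates are not like for like with those of the KikGR+ gate.

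In the Gastrodermis, the inner layer, 3 of 4 fine clusters had the higher mean in Elav, against 24 of all 45. The broad cluster held 17.1 ± 9.95% of Elav cells and 10.9 ± 9.04% of FoxL2 cells. The widest gap was in 8 - Gd - Parietal Muscle, named for a longitudinal muscle of the body wall. With DMSO its share was 7.09% (dissociation 22), 12.2% (23), 8.79% (24) and 0.826% (27) in Elav, against 0% (11), 0.735% (14), 4.01% (15), 5.03% (16) and 1.41% (17) in FoxL2. Untreated, it was 6.62% (dissociation 20), 5.92% (21), 4.36% (25) and 0.912% (26) in Elav, against 0.635% (10), 1.91% (12) and 0% (13) in FoxL2. Of the 8 Elav dissociations 5 were above every FoxL2 one, while 26 and 27, both from day 7, lay among the low FoxL2 values. The other Elav dissociation from day 7, 25, had 4.36%, and the highest FoxL2 value, 5.03% in 16, was also from day 7. The mean was 5.84 ± 3.84% in Elav and 1.72 ± 1.87% in FoxL2, a difference of 4.13 points that did not pass (adjusted p = 0.0822, exact permutation test). It passed without Elav dissociation 26 (4.83 points, adjusted p = 0.0476) and without Elav dissociation 27 (4.84 points, adjusted p = 0.0396), and when Neural 1 cells were not counted in the total (7.85 points, adjusted p = 0.0448), each by the exact permutation test. In green cells alone its difference was -5.81 points (adjusted p = 0.578, exact permutation test). The larger gastrodermal clusters with no further name had smaller differences. Cluster 2 - Gastrodermis averaged 5.42 ± 4.00% in Elav and 4.57 ± 2.40% in FoxL2 (exact permutation p = 0.607), and 3 - Gastrodermis 4.82 ± 3.24% in Elav and 3.18 ± 3.67% in FoxL2 (exact permutation p = 0.350).

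Cluster 0 - Progenitor, the single fine cluster of its broad cluster, was among the largest in both lines, with 8.41 ± 4.54% of Elav cells and 7.23 ± 3.23% of FoxL2 cells (exact permutation p = 0.555). The 5 fine clusters with the highest means held 36.0% of cells in Elav and 39.6% in FoxL2. They shared 0 - Progenitor, 2 - Gastrodermis, 4 - Neural 1 and 5 - Neural 1, with 8 - Gd - Parietal Muscle as the other in Elav and 1 - Epidermis as the other in FoxL2.

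**Figure D3:**
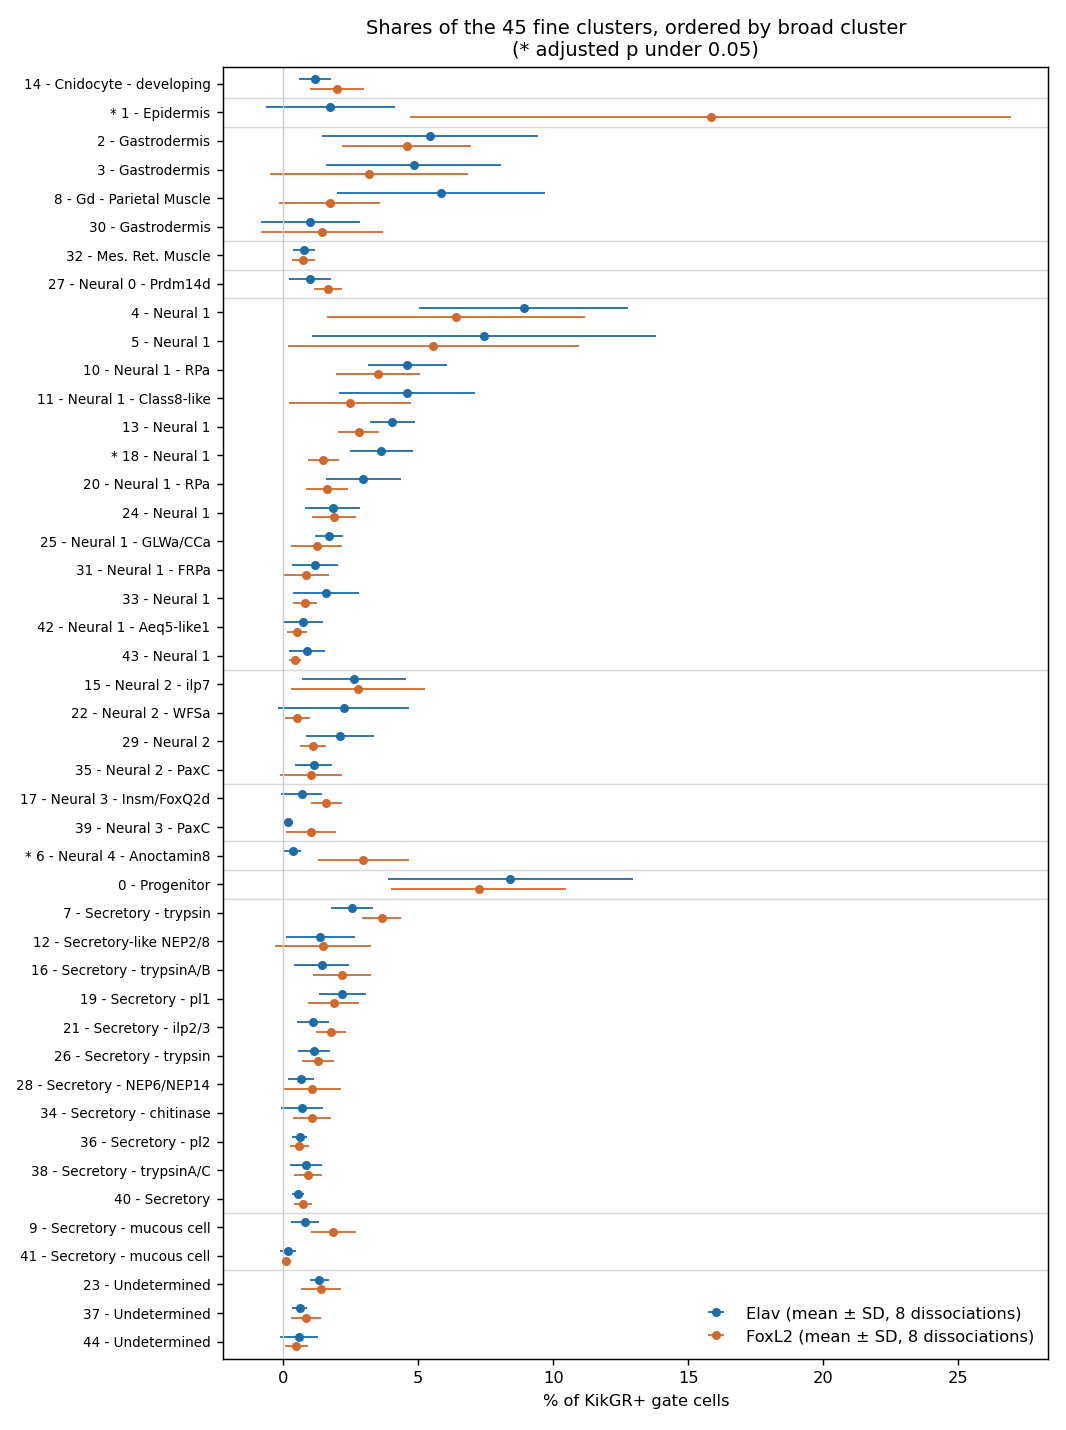
Mean share of each of the 45 fine clusters among KikGR+ gate cells, in percent, with Elav above FoxL2 in each row; bars are SDs over 8 dissociations (an SD bar may cross 0, a share cannot), grey lines part the broad clusters and an asterisk marks an adjusted p under 0.05. Most pairs of bars overlap, and 1 - Epidermis has the widest gap, at 1.74% in Elav and 15.8% in FoxL2.

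To set the level of a broad cluster aside, each fine cluster was also taken as a share of its own broad cluster, in dissociations with at least 10 cells of it. This could be tested for 35 fine clusters in 5 broad clusters, and 0 of 35 passed (0%) in the exact permutation test, with 1 at an unadjusted p under 0.05. That 1 was 8 - Gd - Parietal Muscle, which made up 34.4 ± 14.3% of Gastrodermis cells in Elav (n = 8) and 12.9 ± 9.36% in FoxL2 (n = 6), a difference of 21.5 points (adjusted p = 0.385, exact permutation test). Leaving out Elav dissociation 27 made this difference 25.5 points and called it (adjusted p = 0.0204, exact permutation test). The next 2 by p were 44 - Undetermined, at 34.8 ± 16.0% of Undetermined cells in Elav (n = 3) and 15.4 ± 5.49% in FoxL2 (n = 4; exact permutation p = 0.0571), and 2 - Gastrodermis, at 33.0 ± 21.0% of Gastrodermis cells in Elav (n = 8) and 58.4 ± 30.4% in FoxL2 (n = 6; exact permutation p = 0.0912).

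Inside Neural 1 no fine cluster passed. Cluster 4 - Neural 1 made up 20.4 ± 6.81% of Neural 1 cells in Elav and 20.2 ± 6.98% in FoxL2. Cluster 18 - Neural 1, which was higher in Elav over all cells, made up 8.34 ± 2.54% of Neural 1 cells in Elav and 6.07 ± 3.38% in FoxL2, a difference of 2.27 points (exact permutation p = 0.155). Inside Neural 2, 22 - Neural 2 - WFSa made up 28.0 ± 28.7% in Elav (n = 8) and 13.1 ± 12.4% in FoxL2 (n = 7; exact permutation p = 0.226). Inside Secretory, 7 - Secretory - trypsin made up 20.2 ± 5.51% in Elav and 22.8 ± 4.20% in FoxL2 (exact permutation p = 0.311), and 19 - Secretory - pl1 17.0 ± 5.08% in Elav and 11.8 ± 6.72% in FoxL2 (exact permutation p = 0.105). A p that misses the threshold does not show that the lines were alike inside a broad cluster.

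The whole make-up of a dissociation was summarised as the distance between a pair of dissociations, taken as the share of cells that would have to change cluster for their 45 shares to match. The median distance was 41.8% between the lines, against 34.5% within Elav and 35.8% within FoxL2. Split by medium, the median was 36.8% between lines in the same medium, 28.3% within a line in the same medium and 40.3% within a line across media. The median for 1 line across media was thus above that for different lines in the same medium, as a description of these pairs, which share dissociations and were not tested.

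The colour class of the reporter was a readout that the choice of cells did not use directly. The KikGR+ gate is named for the same reporter, though, and how colour bore on that gate is not given in the sources used here. The authors' table classes 5437 of the 5676 cells as green, orange or red, and how the classes were set is not given in the sources used here. In FoxL2 dissociation 10, 149 of 315 cells had a class. Green, orange and red cells numbered 915, 1303 and 489 in Elav and 249, 1660 and 821 in FoxL2. Over all clusters, the green share of a dissociation was 12.9%, 7.59% and 20.8% at day 2, 55.8% and 23.1% at day 4 and 36.8%, 45.0% and 69.8% at day 7 in Elav. In FoxL2 it was 3.36% and 6.40% at day 2, 1.92%, 4.52%, 3.49% and 12.3% at day 4 and 8.87% and 22.2% at day 7. At each day every Elav value was above every FoxL2 value. The part of this overall difference in the green shares of single clusters was not tested.

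The green share could be compared in 13 fine clusters, with at least 5 coloured cells in at least 4 dissociations a line. All 13 means were higher in Elav, 7 had an unadjusted p under 0.05 and 3 of 13 (23.1%) passed. In 4 - Neural 1, the Elav values were 15.0%, 15.4% and 10.8% at day 2, 28.6% and 16.1% at day 4 and 36.0%, 38.9% and 25.0% at day 7. In FoxL2, 6 of 8 dissociations had no green cell in it, 13 had 4.76% and 11 had 25.0%, from 2 cells of 8. That dissociation lay within the Elav range and the other 7 lay below it. The mean was 23.2 ± 10.5% in Elav and 3.72 ± 8.76% in FoxL2 (n = 8 each; adjusted p = 0.0182, exact permutation test). Over these dissociations Elav had 234 coloured cells of the cluster and FoxL2 128.

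Cluster 5 - Neural 1 had a green share of 28.7 ± 20.3% in Elav (n = 8, from 0% to 63.6%) and of 2.80 ± 6.21% in FoxL2 (n = 7, from 0% to 16.7%), with an adjusted p of 0.0343 by the exact permutation test. Elav dissociations 20, 22 and 24 did not exceed the highest FoxL2 value, and 24 had no green cell among 15. Cluster 19 - Secretory - pl1 had 39.9 ± 24.3% green in Elav (n = 6, from 22.2% to 80.0%) and 5.83 ± 8.12% in FoxL2 (n = 5, from 0% to 16.7%), without overlap and with an adjusted p of 0.0343 by the exact permutation test. It rested on 46 coloured cells in Elav and 35 in FoxL2. Permuting the labels within day, which differs between the lines, kept 4 - Neural 1 (adjusted p = 0.0217) and not 5 - Neural 1 or 19 - Secretory - pl1 (adjusted p = 0.0650 each by the exact permutation test). With at least 10 coloured cells a dissociation, 5 - Neural 1 was not called either (29.8 points, adjusted p = 0.0606, exact permutation test). The permutation within day also called 0 - Progenitor. Its green share in Elav was 4.76%, 4.17% and 11.1% at day 2, 84.6% and 29.9% at day 4 and 100%, 86.7% and 86.8% at day 7. In FoxL2 it was 0% and 4.76% at day 2, 0%, 5.56%, 0% and 18.2% at day 4 and 5.26% and 28.6% at day 7. Without regard to day its mean of 51.0 ± 42.2% in Elav and 7.79 ± 10.3% in FoxL2 did not pass (n = 8 each; adjusted p = 0.0626, exact permutation test). It passed with at least 10 coloured cells a dissociation (48.9 points, adjusted p = 0.0214), with labels permuted within medium (adjusted p = 0.0462), and without Elav dissociation 20, 21, 22 or 24 (adjusted p between 0.0258 and 0.0431), all by the exact permutation test.

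The calls on green share were refitted without each dissociation. The call on 4 - Neural 1 remained in all 16 refits. The call on 5 - Neural 1 was lost without Elav dissociation 23, 26 or 27 or FoxL2 dissociation 10, 12, 13, 14, 15 or 16, and that on 19 - Secretory - pl1 without Elav dissociation 26 or FoxL2 dissociation 11, 13, 14, 16 or 17, with adjusted p between 0.0516 and 0.0944 by the exact permutation test.

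**Figure D4:**
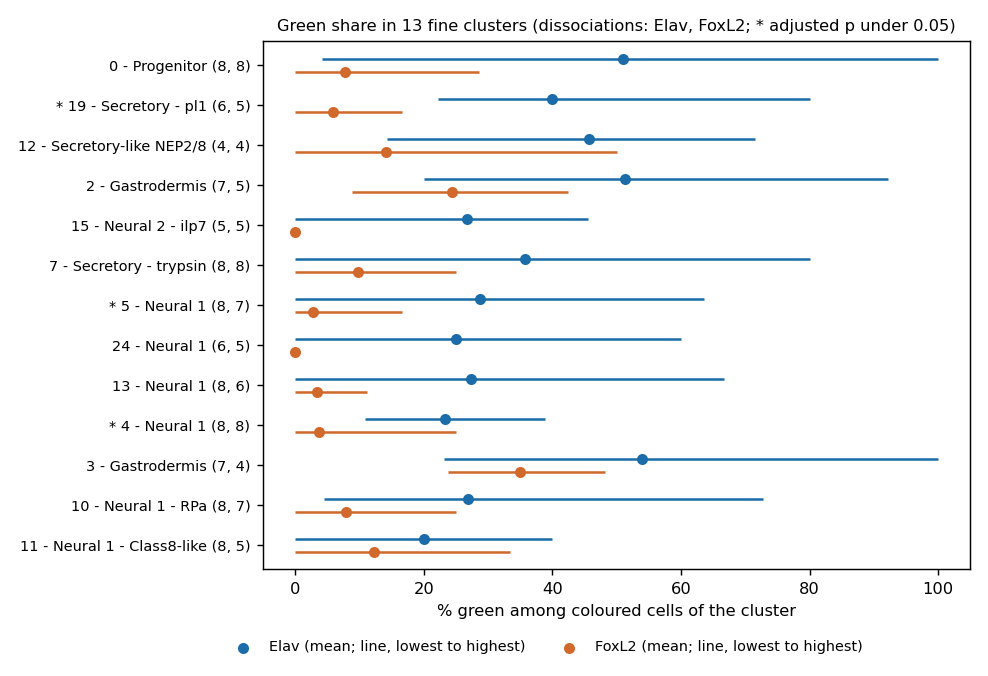
Green cells in percent of the coloured cells of a cluster, for 13 fine clusters, with Elav above FoxL2; points are means over dissociations, lines run from the lowest to the highest dissociation, numbers in brackets count dissociations in Elav and FoxL2, and an asterisk marks an adjusted p under 0.05. The Elav mean is the higher in every cluster, and 19 - Secretory - pl1 is the one called cluster whose lines do not overlap.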

How the data were processed

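Single cells were sorted into plates and sequenced by MARS-seq, which labels the RNA of each well with a barcode, with libraries made from half-plates per the labels' protocols. The submitters' processing notes name STARsolo and STAR 2.7.10b, with no role given. The deposited table used here holds, per the file headers, 1 line per cell with its library, gate, cluster names and colour class. These are categories set by the authors, so no unit or normalization applies. Cell filters, clustering settings, doublet removal and the colour rule are not given in the sources used here. No cell barcode was listed more than once, and line, day, medium and dissociation differed from the labels in 0 cells. Molecule counts were not used here, so depth per cell could not be compared. Precision was set by the 157 to 577 cells a dissociation. Limits at a count of 0 use 3 counts of the total and cover counting error only.

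The dissociation was the replicate, since its cells and libraries share their source. Shares in percent were compared by two-sided exact permutation of the line labels (difference of means, Elav minus FoxL2), with Benjamini-Hochberg adjustment over the clusters of a test and a threshold of 0.05. Where labels were permuted within strata, the statistic was centred on its mean over the arrangements. For the interaction, the mean of the lines' medium effects was subtracted from DMSO dissociations and medium labels were permuted within lines. The share test was also run on simulated counts that held no effect of medium, day or pool, so those runs do not cover such effects. Their outcome is not given here. Python 3.11.15, numpy 2.4.6, pandas 2.3.3 and matplotlib 3.10.9 were used.

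Clusters past the threshold were named with both means, those called on the share of all cells also with their lowest, median and highest dissociation, and uncalled ones where either mean was at least 2%. In the other tests the 3 smallest p were named where fewer than 3 passed. Clusters named beyond this rule (9, 17, 21, 24, 35 and 39, the per-dissociation values of 8 and 22, and 0 - Progenitor for its green share) were chosen after their values were seen. The comparison and its tests were chosen with earlier results of these data known. Alternatives read in single pools, without 1 - Epidermis, and without FoxL2 dissociations 12 and 13, and the minimum of 10 green cells, were chosen after seeing the data.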

Additional observations from a re-analysis of the deposited data

Results flagged for a closer look

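In groups of 4 to 8 dissociations, the gap between the extreme dissociation and its nearest neighbour was set against the whole range of the group. A dissociation stood apart by Dixon's criterion in 3 of 38 groups (7.89%) for the share of all cells, in 2 of 27 (7.41%) for that share in 1 medium and in 3 of 26 (11.5%) for the green share. Chance flags about 1 in 20 groups.

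For the share of all cells, all 3 were in the Elav line. In 1 - Epidermis, Elav dissociation 27 (DMSO, day 7) had 7.16% of its cells, and the next highest had 2.46%. Cluster 5 - Neural 1 made up 21.2% of the cells of Elav dissociation 25 (untreated, day 7), with 10.8% in the next. Cluster 29 - Neural 2 made up 4.93% of the cells of Elav dissociation 21 (untreated, day 2), with 2.48% in the next. Among untreated Elav dissociations alone, 4 - Neural 1 stood at 16.4% in dissociation 26 against 8.55% in the next, and 6 - Neural 4 - Anoctamin8 at 0% in dissociation 25 against 0.608% in the nearest.

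For the green share, all 3 were in the FoxL2 line. In FoxL2 dissociation 11, 25.0% of 4 - Neural 1 and 16.7% of 5 - Neural 1 were green, from 2 cells of 8 and 1 cell of 6, with 4.76% and 2.94% in the next. In FoxL2 dissociation 17, 50% of 12 - Secretory-like NEP2/8 was green, with 6.25% in the next.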

How the results depend on the processing

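On share of all cells, the count of 3 became 0 within medium and day and 0 in green cells alone (8 Elav dissociations with 915 cells, 5 FoxL2 with 234), and 6 in red and orange cells, which added 17 - Neural 3 - Insm/FoxQ2d, 20 - Neural 1 - RPa and 29 - Neural 2. It was 0 in pool SB34 and 0 in pool SB40, and the few dissociations of SB40 allow no call. Without FoxL2 dissociations 12 and 13 it was 8, which added 4, 11 and 13 of Neural 1, 9 - Secretory - mucous cell and 39 - Neural 3 - PaxC. With all gates, which added the 3225 FoxL2 cells of other gates, including 2 further dissociations, it was 2. The calls on 1 - Epidermis (-10.3 points) and 18 - Neural 1 (1.70) were then lost (adjusted p = 0.0622 each, permutation test), while 9 - Secretory - mucous cell was gained. Since this setting changes how FoxL2 cells were sorted, its shares are not like for like with those of the KikGR+ gate. Without 1 - Epidermis it was 4, with 7 - Secretory - trypsin and 9 - Secretory - mucous cell gained, and without Neural 1 it was 3, with 8 - Gd - Parietal Muscle gained. Leaving out single dissociations gave 2 to 6 calls, with 5 without Elav dissociation 26, 6 without Elav 27 and 5 without FoxL2 13. Clusters 6 - Neural 4 - Anoctamin8 and 18 - Neural 1 stayed called in all 16 refits. On shares within broad clusters the count ranged from 0 to 1, the 1 being without Elav 27. Single-medium counts stayed at 0. On green share, permuting within medium gave 6 calls (adding 0 - Progenitor, 2 - Gastrodermis and 7 - Secretory - trypsin), a minimum of 10 coloured cells 2 (4 - Neural 1 and 0 - Progenitor), and leaving out single dissociations 1 to 6, with 6 without Elav 21 or 24 and 1 without Elav 26 or FoxL2 13, 14 or 16.

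Directions turned round only for values that had not passed. In green cells alone, 2 - Gastrodermis was at -4.45 points, 3 - Gastrodermis at -3.89, 8 - Gd - Parietal Muscle at -5.81, 15 - Neural 2 - ilp7 at 2.24 and 16 - Secretory - trypsinA/B at 0.0256. In red and orange cells, 0 - Progenitor was at -2.04, 2 - Gastrodermis at -0.906 and ilp7 at 0.300, and with all gates 0 - Progenitor was at -0.787. In pool SB40, 3 - Gastrodermis was at -3.64, 5 - Neural 1 at -0.121 and ilp7 at 0.327, and in SB34, 2 - Gastrodermis at -1.58. Within medium and day, 5 - Neural 1 was at -0.184. Without 1 - Epidermis, 2 - Gastrodermis was at -0.142 and 19 - Secretory - pl1 at -0.00874. Without FoxL2 12 and 13, 2 - Gastrodermis was at -0.142 and ilp7 at 0.0758, and without Neural 1, ilp7 was at 0.957. Leaving out single dissociations moved ilp7 between -0.541 and 0.627 and 5 - Neural 1 between -0.0844 and 3.58. With at least 5 cells of its broad cluster, 44 - Undetermined was at -0.873 points, and on a logit scale the interaction of 1 - Epidermis was 0.0996. The causes were not tested. No paired analysis was possible because the lines share no dissociation numbers.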
